A study of Rattus norvegicus with 60 samples.

Results

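The genes described are 10 immediate early genes, taken from the lung count table by their symbols out of 30045 rows: the NR4A nuclear receptor genes Nr4a1, Nr4a2 and Nr4a3, the AP-1 genes Fos, Fosb, Jun and Junb, the zinc finger factor gene Egr1, the stress-induced factor gene Atf3 and the early response gene Ier3. All 10 were found and all 10 passed the filter on low counts, which left 15995 genes. The lungs came from male Fischer (F344/DuCrl) rats about 3 months old, housed 3 to a cage. Rats inhaled multi-walled carbon nanotubes (MWCNT), which are rolled carbon fibres, in a whole-body chamber for 6 hours a day on 3 days, or breathed filtered air, and were killed 1 day after the exposure ended. The cumulative doses were 11.25, 22.5, 45, 90 and 180 mg/m3, each given in a separate run with 6 MWCNT rats and 6 air rats of its own, so dose and run cannot be told apart. RNA was taken from a piece of whole lung, and mRNA was sequenced from 60 rats. The labels mark 7 libraries as outliers and these were left out, which left 5 MWCNT and 6 air rats at 11.25 mg/m3, 6 and 6 at 22.5, 6 and 3 at 45, 4 and 6 at 90, and 5 and 6 at 180.

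Immediate early genes are switched on within minutes of a stimulus without new protein synthesis, because the factors that bind their promoters (CREB, SRF with its ternary complex partners, and NF-kB) are already in the cell. Most encode transcription factors, and their transcripts usually decay fast. Fos and Jun proteins pair to form AP-1. The NR4A receptors are orphan nuclear receptors whose activity is thought to depend mainly on how much of the protein is made, and they are known in macrophages, T cells and vessel walls.

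Promoter windows from RefSeq (GRCr8, 250 bases before to 50 after the start) were given for 5 of the 10 genes, Nr4a1, Nr4a2, Fosb, Junb and Egr1. The windows of Nr4a1, Egr1, Fosb and Junb are shown because these 4 genes varied together from rat to rat within the treatment groups. Capitals mark matches on either strand to the cAMP-response-element core TGACG (read as CGTCA on the other strand) and to the CArG box, the site of SRF.
Nr4a1, chr7:134259888-134260187, plus strand: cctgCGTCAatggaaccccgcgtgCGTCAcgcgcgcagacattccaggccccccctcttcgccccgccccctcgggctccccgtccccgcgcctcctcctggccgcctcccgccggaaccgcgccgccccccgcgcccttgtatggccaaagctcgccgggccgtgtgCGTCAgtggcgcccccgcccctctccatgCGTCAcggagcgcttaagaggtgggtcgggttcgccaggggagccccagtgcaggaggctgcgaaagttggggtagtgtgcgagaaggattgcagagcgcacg
Egr1, chr18:26736828-26737127, plus strand: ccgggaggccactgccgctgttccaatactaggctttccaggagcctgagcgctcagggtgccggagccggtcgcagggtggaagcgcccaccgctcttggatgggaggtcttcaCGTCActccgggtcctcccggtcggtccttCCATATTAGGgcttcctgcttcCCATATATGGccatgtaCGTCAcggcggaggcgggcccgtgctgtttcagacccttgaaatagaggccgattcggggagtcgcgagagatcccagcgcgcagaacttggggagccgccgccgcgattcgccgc
Fosb, chr1:88089135-88089434, minus strand: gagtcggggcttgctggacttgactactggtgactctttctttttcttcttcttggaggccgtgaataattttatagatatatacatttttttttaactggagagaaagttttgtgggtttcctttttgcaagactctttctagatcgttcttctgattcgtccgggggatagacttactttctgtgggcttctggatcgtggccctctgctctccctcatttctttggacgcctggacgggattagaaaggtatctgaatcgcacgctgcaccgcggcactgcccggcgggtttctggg
Junb, chr19:40080876-40081175, plus strand: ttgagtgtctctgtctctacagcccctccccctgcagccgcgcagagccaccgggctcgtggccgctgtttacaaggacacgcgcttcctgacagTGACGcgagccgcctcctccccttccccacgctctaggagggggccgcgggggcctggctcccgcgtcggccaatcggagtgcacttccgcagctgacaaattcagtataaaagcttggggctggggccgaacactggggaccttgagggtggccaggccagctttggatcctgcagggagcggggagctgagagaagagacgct
The Nr4a1 window held 4 matches to TGACG, the Egr1 window 2 and the Junb window 1. The Nr4a2 window held 1 and the Fosb window 0. Of 33469 rat promoter windows of this length, 21.2% held at least 1. The Egr1 window also held 2 CArG boxes, a motif present in 1.64% of windows, and the Nr4a1 window held 1 match to the EGR site GCGNGGGCG, present in 4.98%. No marked motif overlapped another in these windows. The full element TGACGTCA, which contains TGACG (1.83% of windows), the AP-1 site TGANTCA (7.33%) and the NR4A monomer site AAAGGTCA (1.43%) had no match in the 5 windows. These are matches of letters, not measured binding.

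The analysed libraries held 8.1 to 16.2 times 1000000 counts (median 11.2). They carried lung transcripts throughout, with surfactant gene Sftpc at 7986 to 14718 counts per 1000000 (CPM). Among the libraries labelled as outliers, 3 held a liver profile, in which liver markers took 21.3% to 24.1% of the counts. Levels below are CPM after scaling by the trimmed mean of M-values. Each run's MWCNT rats were set against the air rats of that run with edgeR's quasi-likelihood F-test (two-sided), and genes below 0.05 after Benjamini-Hochberg adjustment over all genes are referred to as called. SE is the standard error of the log2 fold change. In whole lung, a change in the number of cells of a type and a change in RNA per cell cannot be told apart.

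At the highest dose, 180 mg/m3, 4 of the 10 genes rose (Nr4a3, Junb, Ier3 and Atf3) and 0 fell, where 12% of all genes tested rose and 10.9% fell, 22.9% in all. The median log2 fold change of the 10, called or not, was 0.67, against -0.01 over all genes. The 10 were chosen with earlier results of these data known, so the shares and medians over all genes are given for scale and are not a test of the set. In the 90 mg/m3 run 1 of 10 rose (Nr4a3) and 0 fell, where 6.82% of all genes rose and 4.28% fell, 11.1% in all. In the 22.5 mg/m3 run again 1 of 10 rose (Nr4a3) and 0 fell, where 5.18% of all genes rose and 1.62% fell, 6.8% in all. The 45 mg/m3 run had 0 of 10 called in edgeR's test, where 3.32% of all genes rose and 2.09% fell, 5.41% in all. There, 4 of the 10 had an unadjusted p under 0.05, DESeq2 called 0 and limma voom called 1 (Jun). At 11.25 mg/m3 edgeR called 0 of 10, with 0 at an unadjusted p under 0.05 and 0 called by DESeq2 or limma voom, and 0.025% of all genes were called.

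**Figure D1:**
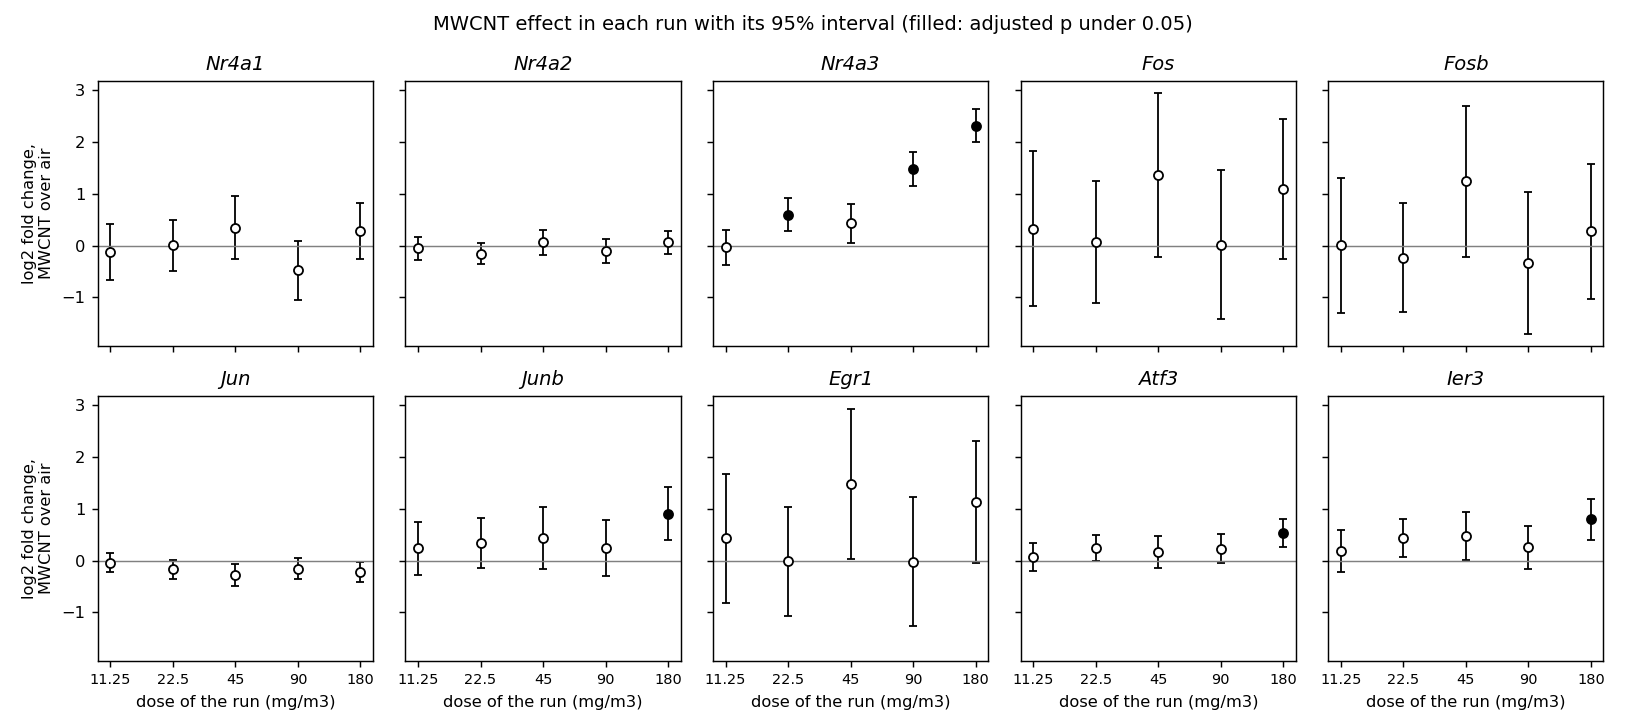
Log2 fold change of each gene, MWCNT over air, in the 5 runs ordered by dose (mg/m3), with its approximate 95% interval. Filled points had an adjusted p under 0.05. Nr4a3 reached 2.32 at 180 mg/m3, Junb, Atf3 and Ier3 were called in that run only, and the intervals of Fos, Fosb and Egr1 were wide in every run.

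Nr4a3, also called NOR1, rose with the largest fold of the 10 genes at the highest dose. In the 180 mg/m3 run it stood at 11.3, 9.52, 8.12, 9.55 and 13.0 CPM in the MWCNT rats, against 2.37, 1.88, 2.24, 2.01, 1.96 and 1.86 CPM in the air rats. Every MWCNT rat lay above every air rat, and the lowest MWCNT value was more than 3 times the highest air value. The means were 10.3 ± 1.9 CPM with MWCNT (SD, n = 5) and 2.05 ± 0.21 CPM in air (SD, n = 6), a 4.98-fold rise (log2 fold change 2.32 ± 0.16 SE, edgeR adjusted p = 2.1e-16). These are low counts, 78 to 130 reads per MWCNT library and 19 to 29 per air library.

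At 90 mg/m3 Nr4a3 read 7.18, 6.96, 6.87 and 6.24 CPM in the MWCNT rats, against 2.30, 2.27, 2.97, 3.20, 1.78 and 2.09 CPM in the air rats. The groups again did not overlap, and the log2 fold change was 1.49 ± 0.16 SE (2.80-fold, edgeR adjusted p = 2.3e-09). Of all genes tested in that run, 6.69% had every MWCNT rat above every air rat, and at 180 mg/m3 this share was 7.32%.

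At 45 mg/m3 Nr4a3 averaged 3.86 ± 0.58 CPM with MWCNT (SD, n = 6) and 2.85 ± 0.18 CPM in air (SD, n = 3). The lowest MWCNT rat stood at 3.063 CPM and the highest air rat at 3.061 CPM, so the groups were separate by a margin far under 1 read. The change of 0.43 ± 0.19 SE was not called (edgeR adjusted p = 0.19), and 7.53% of all genes had every MWCNT rat above every air rat in this run. At 22.5 mg/m3 it averaged 3.48 ± 0.70 CPM with MWCNT and 2.33 ± 0.51 CPM in air (SD, n = 6 each), a 1.51-fold rise (0.60 ± 0.16 SE, edgeR adjusted p = 0.011). The groups overlapped there, from 2.54 to 4.63 CPM with MWCNT and from 1.69 to 2.79 CPM in air. In that run every MWCNT rat lay above every air rat for 1.96% of all genes and for 0 of the 10. That call was lost without air replicate 6 (0.51, adjusted p = 0.052) and with the run fitted alone (0.59, adjusted p = 0.14). At 11.25 mg/m3 the means were 2.76 ± 0.61 CPM with MWCNT (SD, n = 5) and 2.87 ± 0.65 CPM in air (SD, n = 6), a log2 fold change of -0.04 with a 95% interval of -0.37 to 0.30.

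Over the 5 runs the effect on Nr4a3 grew by 0.56 ± 0.05 SE on the log2 scale per doubling of dose (edgeR adjusted p = 3.6e-11). Of all genes, 5.58% had a slope called upward and 5.07% downward, 10.7% in all, and of the 10 members 1 was called upward and 0 downward. The effect also differed among runs (4 degrees of freedom, edgeR adjusted p = 7.1e-10), which was so for 1 of the 10 members, Nr4a3, and for 4.92% of all genes. In order of mean level among the MWCNT groups, the 180 mg/m3 group was highest, then the 90 mg/m3 group, then those at 45, 22.5 and 11.25 mg/m3. The ranges of the 180 and 90 mg/m3 MWCNT groups did not touch each other or those of the lower doses, whereas those of the 3 lower doses overlapped. These levels are not set against each run's own air. Against it, the log2 fold change was 0.60 at 22.5 mg/m3 and 0.43 at 45 mg/m3, so the effects did not follow that order throughout.

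**Figure D2:**
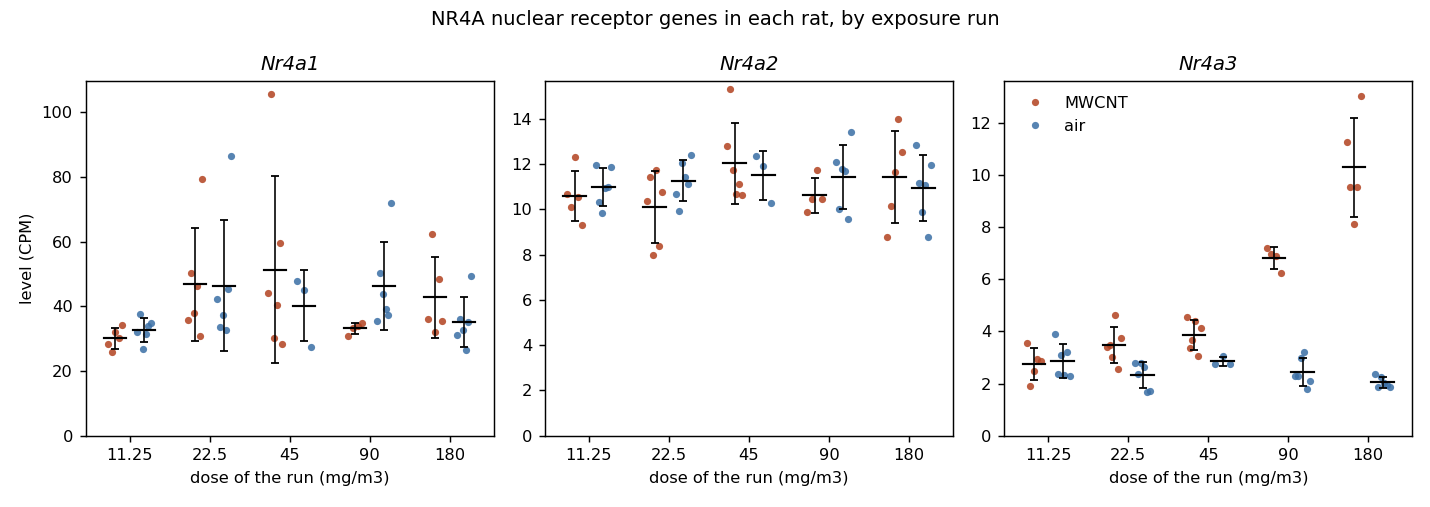
CPM of the NR4A genes in each rat (points), with the mean and SD of each group, MWCNT left of air within each run and runs ordered by dose (mg/m3). Nr4a3 in MWCNT rats averaged 6.81 CPM at 90 mg/m3 and 10.3 CPM at 180 mg/m3, against 2.43 and 2.05 CPM in air, while Nr4a1 and Nr4a2 groups overlapped in most runs.

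Nr4a2, also called NURR1, was not called in any run. Its group means ran from 10.1 to 12.0 CPM with MWCNT and from 11.0 to 11.5 CPM in air. The log2 fold changes were -0.05, -0.16, 0.06, -0.10 and 0.06 at 11.25, 22.5, 45, 90 and 180 mg/m3. Its 95% interval at 180 mg/m3 was -0.16 to 0.28, which lies below that of Nr4a3 in the same run, 1.999 to 2.63. Nr4a1, also called NUR77, was not called in any run either. Its log2 fold changes were -0.12, 0.01, 0.35, -0.48 and 0.28 at the 5 doses from low to high. At 90 mg/m3 Nr4a1 stood at 30.9, 33.2, 34.0 and 35.0 CPM in the MWCNT rats, against 35.6, 50.2, 43.7, 39.3, 37.5 and 71.8 CPM in the air rats. All 4 MWCNT rats lay below all 6 air rats, as they did for 4.82% of genes in that run, and the difference was not called (-0.48 ± 0.28 SE, edgeR adjusted p = 0.32).

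The family members were also compared within each library, as the log2 ratio of their counts, which does not depend on scaling between libraries. This comparison was chosen after the levels had been seen, and its 10 exact permutation tests (two-sided) were adjusted over the 10. At 180 mg/m3 the ratio of Nr4a3 to Nr4a1 was higher with MWCNT than in air by 2.05 (exact permutation p = 0.0043, adjusted p = 0.014), and that of Nr4a3 to Nr4a2 by 2.26 (exact permutation p = 0.0043, adjusted p = 0.014). At 90 mg/m3 the differences were 1.95 and 1.61 (both exact permutation p = 0.0095, adjusted p = 0.019). These p-values are the smallest the group sizes allow, and 5 of 5 and 4 of 4 MWCNT rats lay above all air rats. At 22.5 mg/m3 the ratio to Nr4a2 was higher by 0.75 in 6 of 6 MWCNT rats (exact permutation p = 0.0022, adjusted p = 0.014), whereas the ratio to Nr4a1 was higher by 0.55 and did not pass (exact permutation p = 0.16). At 45 mg/m3 the differences were 0.19 and 0.37, and at 11.25 mg/m3 they were 0.06 and 0.00, none of which passed.

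Marker genes of other cell types were read in the same libraries. In the 180 mg/m3 run, 12% of all genes tested rose and 10.9% fell. At 180 mg/m3, all 8 neutrophil markers passed the filter and 6 rose, and their summed share was 0.026% to 0.034% of counts in MWCNT rats and 0.013% to 0.022% in air rats. Of the macrophage markers, 4 of the 6 tested rose and 1 fell, with sums of 2.20% to 2.47% with MWCNT and 1.58% to 2.45% in air. Of 7 monocyte and dendritic cell markers tested, 5 rose, with sums of 0.0364% to 0.0431% with MWCNT and 0.0362% to 0.0389% in air. Of the endothelial markers, 6 of 8 fell, and the sums were 0.365% to 0.404% with MWCNT and 0.419% to 0.472% in air. The part of these cells in the changes of the 10 genes was not tested.

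Junb, the AP-1 subunit known for restraining some actions of Jun, rose at the highest dose only. It stood at 144.0, 137.5, 108.6, 111.8 and 94.3 CPM in the MWCNT rats of the 180 mg/m3 run, against 63.6, 58.6, 60.8, 50.2, 61.4 and 86.6 CPM in the air rats. Every MWCNT rat lay above every air rat, as for 7.32% of all genes in that run, and a single air rat at 86.6 CPM came near them. The means were 119.2 ± 20.8 CPM with MWCNT (SD, n = 5) and 63.5 ± 12.2 CPM in air (SD, n = 6), a 1.88-fold rise (0.91 ± 0.25 SE, edgeR adjusted p = 0.0060). In the lower runs the changes, from low to high dose, were 0.23, 0.34, 0.43 and 0.24 and were not called. The difference of the effect among runs was not called for Junb either (edgeR adjusted p = 0.71), so the call at 180 mg/m3 alone does not show that this run differed from the others.

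Ier3, an early response gene that acts in cell survival and is induced by NF-kB, followed a like order. At 180 mg/m3 it read 41.2, 34.7, 30.4, 38.9 and 32.7 CPM in the MWCNT rats, against 21.7, 18.7, 19.0, 16.7, 18.1 and 28.3 CPM in the air rats. Every MWCNT rat lay above every air rat, as for 7.32% of all genes in that run. The rise was 1.74-fold (0.80 ± 0.20 SE, edgeR adjusted p = 0.0019). Changes of 0.19, 0.44, 0.47 and 0.25 at 11.25, 22.5, 45 and 90 mg/m3 were not called. Leaving out air replicate 6 of the 22.5 mg/m3 run, whose Ier3 level was the highest of its group, made the change in that run a called 0.63 (edgeR adjusted p = 0.029).

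Atf3, a member of the ATF and CREB family that is induced by many stresses and holds back inflammatory genes in macrophages, stood at 24.5, 17.7, 21.3, 21.3 and 17.1 CPM in the MWCNT rats at 180 mg/m3. The air rats of that run had 16.7, 15.1, 13.6, 10.7, 9.82 and 18.3 CPM. All 5 MWCNT rats were above the air mean, but the ranges overlapped. The rise was 1.45-fold (0.53 ± 0.13 SE, edgeR adjusted p = 0.0021). In the other runs its changes were 0.07, 0.25, 0.17 and 0.23 from low to high dose, and the slope over doses was not called (0.09 ± 0.04 SE per doubling, edgeR adjusted p = 0.19).

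Fos, the partner of the Jun proteins in AP-1, was not called in any run. In the 180 mg/m3 run it stood at 45.2, 47.8, 24.3, 30.0 and 17.7 CPM in the MWCNT rats, against 11.2, 8.75, 7.63, 8.60, 23.5 and 33.7 CPM in the air rats. All MWCNT rats were above the air mean, but 2 air rats reached into their range. The log2 fold change was 1.10 ± 0.67 SE (edgeR adjusted p = 0.27), with a 95% interval of -0.26 to 2.45. At 11.25 mg/m3 the groups were narrow and did not overlap, with 12.0 to 13.8 CPM in the 5 MWCNT rats and 8.24 to 11.4 CPM in the 6 air rats. Only 0.444% of all genes had every MWCNT rat above every air rat in that run, yet Fos was not called (0.33 ± 0.74 SE, edgeR adjusted p = 0.999). The SE comes from a dispersion shared by all 10 groups. With that run fitted alone the change of Fos was 0.32 and was not called (edgeR adjusted p = 0.58).

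Egr1, an early zinc finger factor of growth factor and injury signalling, resembled Fos. The MWCNT rats of the 180 mg/m3 run had 37.3, 47.6, 27.4, 36.7 and 23.1 CPM, against a lowest value of 6.999, a median of 10.1 and a highest value of 38.7 CPM in the 6 air rats. Again all MWCNT rats were above the air mean, and 1 air rat, at 38.7 CPM, lay within their range. The change of 1.13 ± 0.58 SE was not called by edgeR (adjusted p = 0.17), but it was by limma voom with quality weights (1.60, adjusted p = 0.026). At 45 mg/m3 the log2 fold change was 1.48 ± 0.72 SE and not called (edgeR adjusted p = 0.26). Fosb, a further Fos family subunit, was not called in any run. Its changes were 0.00, -0.23, 1.24, -0.33 and 0.28 from low to high dose, with SEs of 0.53 to 0.72.

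Jun, the AP-1 subunit with the steadiest level among its family here, pointed downward without a call. In the 180 mg/m3 run it ranged from 195.6 to 231.9 CPM with MWCNT, with a median of 218.8, and from 239.4 to 272.4 CPM in air, with a median of 245.3. All 5 MWCNT rats lay below all 6 air rats, which held for 5.95% of genes. The change was -0.22 ± 0.09 SE (edgeR adjusted p = 0.097), and it was called with that run fitted alone (-0.21, adjusted p = 0.0079). At 45 mg/m3 Jun stood at 216.8, 315.3, 183.3, 238.6, 187.2 and 174.8 CPM in the MWCNT rats, against 269.2, 273.5 and 253.5 CPM in the air rats. MWCNT replicate 2 lay above all 3 air rats and the other 5 below them, so the groups overlapped, where 6.29% of all genes had every MWCNT rat below every air rat. The change of -0.28 ± 0.11 SE was not called (edgeR adjusted p = 0.14). It was -0.41 and called without MWCNT replicate 2 of that run (adjusted p = 0.0041). At 11.25, 22.5 and 90 mg/m3 the log2 fold changes were -0.04, -0.17 and -0.16.

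**Figure D3:**
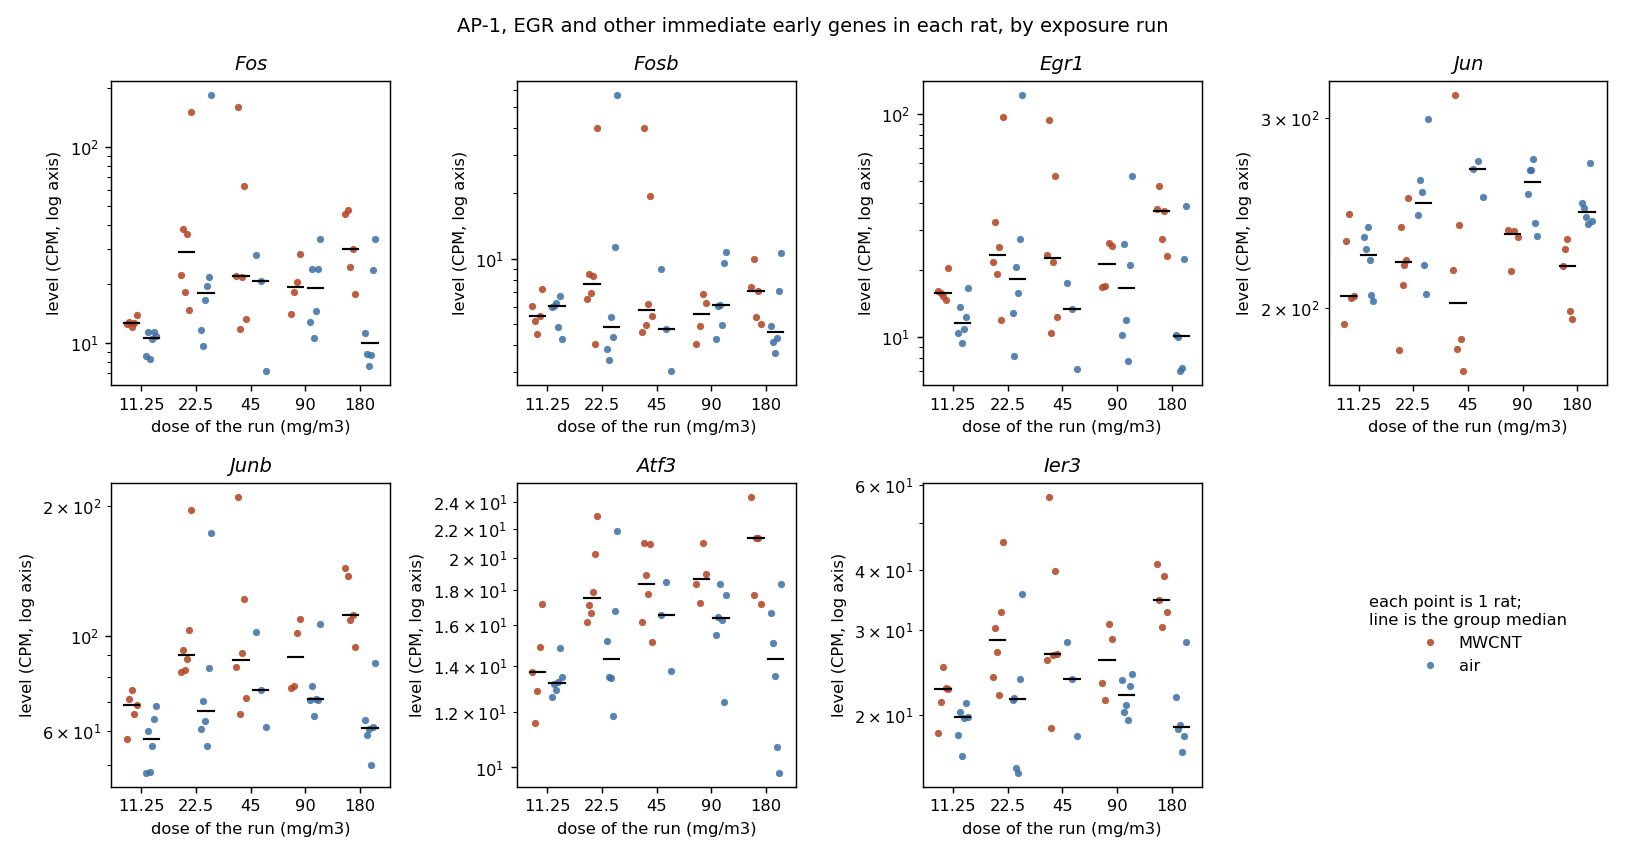
CPM on a log axis for the 7 genes outside the NR4A family, in each rat (points) with the group median (line), MWCNT left of air within each run and runs ordered by dose (mg/m3). Single rats of the 22.5 mg/m3 run reached 151.0 CPM (MWCNT) and 184.3 CPM (air) for Fos. In the 45 mg/m3 run 1 MWCNT rat reached 160.5 CPM for Fos. At 180 mg/m3 all MWCNT rats exceeded all air rats for Junb and Ier3, as for 7.32% of all genes tested.

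The spread among rats of the same group was large for several of these genes, though not for all. In the fitted model Fos had a biological coefficient of variation of 0.694, rank 107 from the top of 14728 genes that averaged 1 CPM or more. Fosb (0.630, rank 132) and Egr1 (0.626, rank 135) came close behind, and Nr4a1 (0.290), Junb (0.280) and Ier3 (0.217) were also far above the median of 0.0857. Atf3 (0.137), Nr4a3 (0.115), Jun (0.107) and Nr4a2 (0.0924) were nearer to it. At 22.5 mg/m3, Fos ran from 14.7 to 151.0 CPM in the MWCNT rats, with a median of 28.9, and from 9.63 to 184.3 CPM in the air rats, with a median of 18.0. The air group alone covered a 19.1-fold range. At 45 mg/m3 it ran from 11.7 to 160.5 CPM with MWCNT (median 21.8), and 7.14, 20.7 and 28.1 CPM were measured in the 3 air rats.

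The highest Fos values came from MWCNT replicate 2 of the 45 mg/m3 run and from replicate 6 of the 22.5 mg/m3 run in both groups, the MWCNT rats and the air rats. The same 3 libraries were the highest of their groups for Fosb, Egr1, Junb, Nr4a1 and Ier3. Their totals were 12.2, 13.96 and 16.2 times 1000000 counts, the last of which was the deepest library analysed. Heat shock genes took 0.122%, 0.108% and 0.0960% of their counts. With each library of a run left out in turn, the change of Fos at 22.5 mg/m3 ranged from -0.80 to 1.58 and that at 45 mg/m3 from 0.49 to 1.79, with no call.

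Within groups, 6 of the genes, set apart here after their values were seen, varied together from rat to rat. For each gene, log2(CPM + 1) was taken as a deviation from the mean of its run and treatment group, and 45 pairs of genes were compared over 53 libraries, with permutation within groups. Of the 45 pairs, 29 passed by Pearson's r and 25 by Spearman's rho at an adjusted p under 0.05. The share of passing pairs among all genes was not taken, so these counts do not show a property particular to these genes. The 15 pairs among Fos, Fosb, Egr1, Nr4a1, Junb and Ier3 had r of 0.72 to 0.95 and rho of 0.60 to 0.94. Without the 2 libraries farthest from the median of the pair's first gene, r was 0.63 to 0.93. For each pair, not all of the libraries with the highest Fos values given above were left out. Fos with Egr1 had r = 0.948 and rho = 0.936, and r = 0.93 without the 2 farthest libraries. Its permutation p was 1e-05, the smallest that 100000 permutations can give (adjusted p = 2.8e-05 for r). Nr4a1 with Egr1 had r = 0.892 and rho = 0.82 (permutation adjusted p = 2.8e-05 for r). Nr4a1, whose change with MWCNT was not called in any run, thus rose and fell with Fos and Egr1 among rats treated alike.

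**Figure D4:**
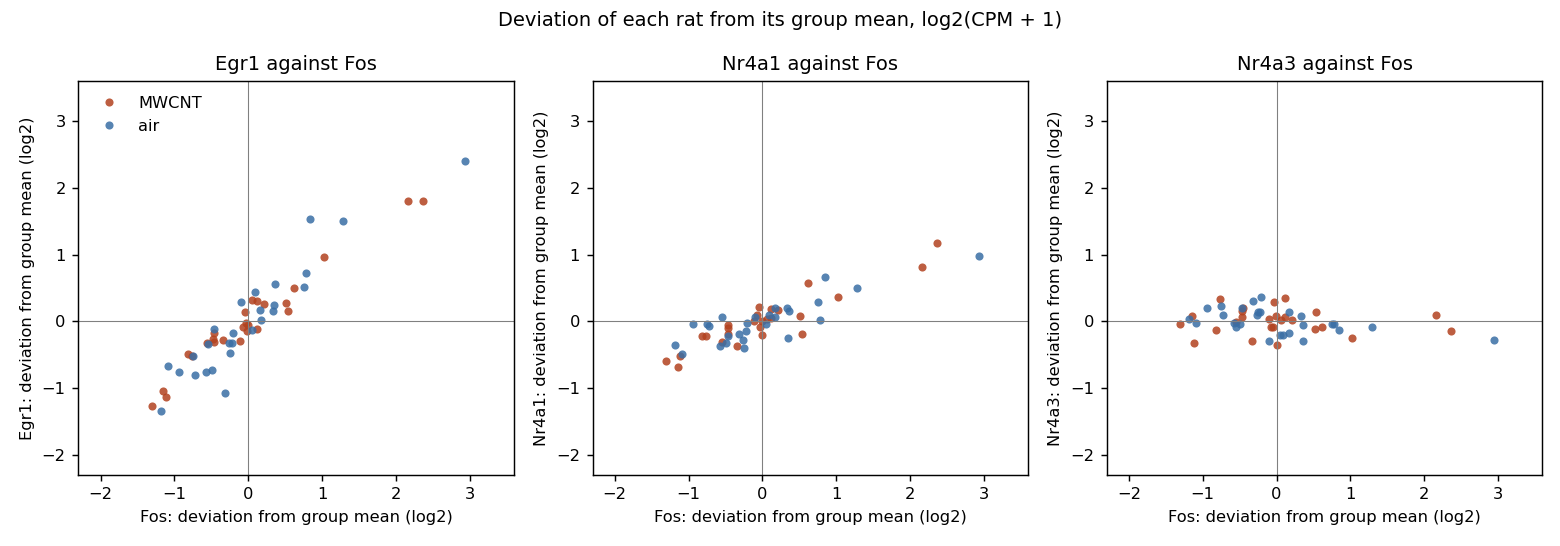
Deviation of each rat from its group mean in log2(CPM + 1), for Egr1, Nr4a1 and Nr4a3 against Fos, over 53 libraries (MWCNT and air marked by colour). Egr1 and Nr4a1 rose with Fos in both treatments (r = 0.948 and 0.88), and Nr4a3 did not (r = -0.28).

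Nr4a3 stood outside that group. Its r was -0.39 with Junb (rho = -0.47, permutation adjusted p = 0.014 for r), -0.37 with Ier3 (rho = -0.42, permutation adjusted p = 0.015) and -0.32 with Egr1 (rho = -0.36, permutation adjusted p = 0.049). Without the 2 farthest libraries these were -0.39, -0.40 and -0.34. With Fos it was -0.28 (permutation adjusted p = 0.082) and with Nr4a1 -0.19 (permutation adjusted p = 0.23). The negative r of Nr4a3 with Fos was -0.07 over the MWCNT rats alone and -0.49 over the air rats alone, and that with Junb -0.26 and -0.54; the difference between treatments was not tested. Counts of Nr4a3 were as low as 17 reads, so counting error adds to its spread.

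Nr4a2 passed with 1 of 9 partners, Nr4a1 (r = 0.44, rho = 0.40, permutation adjusted p = 0.0092 for r). Atf3 passed with 6 of 9, from r = 0.49 with Egr1 and Fos to 0.63 with Junb and Ier3. Jun passed with 4 of 9, but its relations rested on few rats. With Fos, r was 0.49 and 0.23 without the 2 farthest libraries, and rho was 0.26 (permutation adjusted p = 0.15 for rho).

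**Figure D5:**
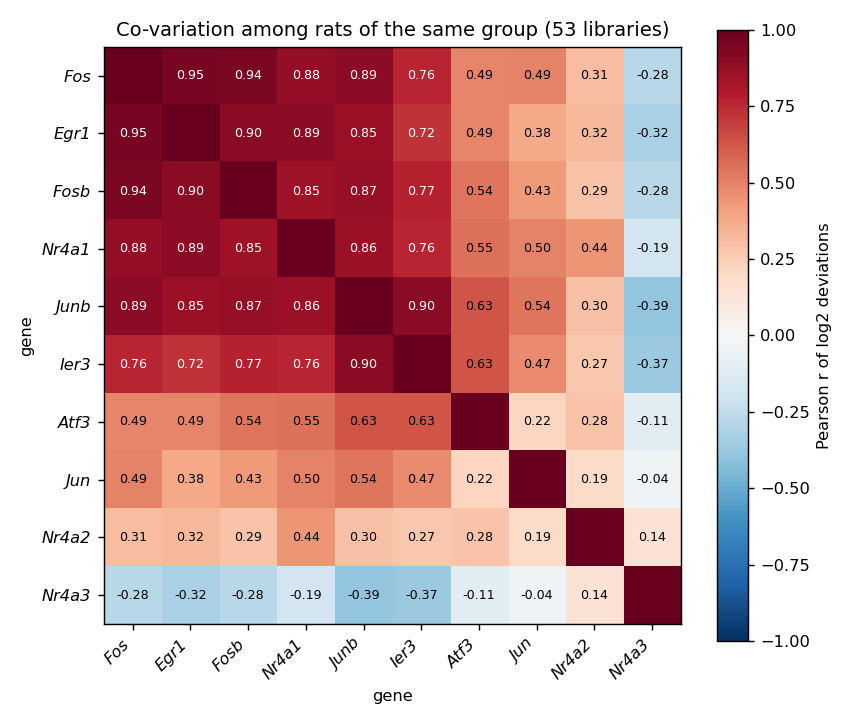
Pearson's r of log2 deviations from the group mean for each pair of the 10 genes over 53 libraries, from -1 (blue) to 1 (red). Fos, Egr1, Fosb, Nr4a1, Junb and Ier3 form a block with r of 0.72 to 0.95, and Nr4a3 is negative with all but Nr4a2.

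The genes most like a member were taken by Pearson's r of log2(CPM + 1) after subtraction of the mean of the run's own air group, over 53 libraries, among genes that averaged 1 CPM or more. They were picked for this r, which includes the dose response, so no p is given. For Nr4a3 these were Cyp51 (0.933), an enzyme of cholesterol synthesis, Ccl22 (0.917), a chemokine of macrophages and dendritic cells, Spp1 (0.917), which encodes osteopontin, Gcsam (0.913) and Lilrb4 (0.909), an inhibitory receptor of myeloid cells. At 180 mg/m3 their log2 fold changes were 0.91, 3.65, 4.58, 1.31 and 1.09. For Atf3 they were Socs3 (0.826), a feedback inhibitor of cytokine receptors, Bcl3 (0.809), Ccl2 (0.767), a monocyte chemokine, B3gnt7 (0.764) and Niacr1 (0.760). For Fos they were Cyr61 (0.936), a secreted matrix protein, Btg2 (0.825), Egr3 (0.697), Plk3 (0.676) and Egr2 (0.653). All 5 genes most like Fos belong to the lists of immediate early genes drawn up for this work, and none of the 5 most like Nr4a3 does. Those lists were drawn up with earlier results of these data known, and the share of list genes among all genes compared was not taken. The r of Nr4a3 includes a called dose slope and that of Fos does not, so the r values of these members are not like for like. Of those 5 like Fos, only Egr2 was called at 180 mg/m3 (0.70 ± 0.19 SE, edgeR adjusted p = 0.0057), and Cyr61 had 0.65 ± 0.55 SE (edgeR adjusted p = 0.45).

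Other genes of the pathway were read from lists by role, at 180 mg/m3, where 22.9% of all genes were called. Of 12 further AP-1 and partner genes tested, 2 rose and 0 fell, with a median log2 fold change of 0.06. Batf, a partner of Jun in lymphoid and myeloid cells, had 5.25 ± 0.65 CPM with MWCNT (SD, n = 5) and 2.79 ± 0.70 CPM in air (SD, n = 6), a change of 0.91 ± 0.20 SE (edgeR adjusted p = 0.00051). Maff, a small MAF protein, rose by 0.62 ± 0.09 SE (edgeR adjusted p = 3.4e-07) and also at 90 mg/m3 (0.33 ± 0.09 SE, edgeR adjusted p = 0.013). Of 4 genes of the EGR family and its NAB corepressors, 1 rose, Egr2.

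Of 20 other immediate early factors of transcription and RNA, 2 rose and 2 fell (median -0.03). Myc, a growth regulator, rose by 0.50 ± 0.09 SE at 180 mg/m3 (edgeR adjusted p = 2.2e-05) and by 0.50 ± 0.10 SE at 90 mg/m3 (edgeR adjusted p = 0.00015), and Maff is in this list too. Klf2, a flow-sensitive factor of endothelium, fell by 0.87 ± 0.21 SE (edgeR adjusted p = 0.0014), with 109.2 ± 23.6 CPM with MWCNT (SD, n = 5) and 199.0 ± 35.7 CPM in air (SD, n = 6). Klf4, its relative, fell by 0.34 ± 0.09 SE at 180, 0.38 ± 0.10 SE at 90 and 0.46 ± 0.11 SE at 45 mg/m3, with edgeR adjusted p-values of 0.0062, 0.0080 and 0.0043. The endothelial markers that fell in the same run are given above.

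Of 16 immediate early signalling and secreted genes tested, 6 rose and 1 fell (median 0.39). Thbs1, a matrix glycoprotein, changed by 1.02 ± 0.17 SE and Plaur, the urokinase receptor, by 0.62 ± 0.13 SE. Rhob, a small GTPase, fell by 0.42 ± 0.09 SE. At 90 mg/m3, 4 of the 16 rose and 1 fell, where 6.82% of all genes rose and 4.28% fell.

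Of 14 MAP kinase phosphatase and Sprouty genes, 1 rose and 4 fell at 180 mg/m3 (median -0.09). Spry1 changed by -0.30 ± 0.07 SE, Dusp6, which acts on ERK, by -0.26 ± 0.08 SE, and Dusp10 by -0.36 ± 0.11 SE, whereas Dusp2, a phosphatase of immune cells, rose by 0.47 ± 0.14 SE and at 90 mg/m3 by 0.78 ± 0.14 SE. A list of SRF, ternary complex, Creb1 and CREB coactivator genes had 10 tested, of which 0 rose and 2 fell. They were Elk3 (-0.21 ± 0.05 SE) and the CREB coactivator gene Crtc2 (-0.10 ± 0.03 SE). Of 10 genes tested from a list of cAMP and CREB related genes, 0 rose and 1 fell, the CREB-like gene Crebl2 (-0.19 ± 0.04 SE). Of the 3 RXR genes, partners of Nr4a1 and Nr4a2 in dimers, 0 rose and 2 fell, Rxrb (-0.18 ± 0.05 SE) and Rxrg (-0.44 ± 0.16 SE).

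Among pathways upstream of or beside these genes, 8 of 12 NF-kB feedback genes rose and 0 fell at 180 mg/m3 (median 0.34). Bcl3, an atypical IkB protein, rose at 22.5, 45, 90 and 180 mg/m3, by 0.51, 0.53, 0.62 and 0.93. Birc3 changed by 0.75 ± 0.12 SE, Nfkbie by 0.56 ± 0.07 SE and Nfkbiz by 0.64 ± 0.10 SE at 180 mg/m3. Of 12 ATF4 and amino acid stress targets, 4 rose and 1 fell (median 0.14). Slc7a11, the cystine importer, rose at 22.5, 45, 90 and 180 mg/m3 by 1.27, 1.18, 1.84 and 1.98, and at 180 mg/m3 Phgdh changed by 0.61, Trib3 by 0.49 and Chac1 by 0.69. Of 10 heat shock genes tested, 1 rose, Hspd1 (0.18 ± 0.06 SE), and 0 fell.

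Of 15 clock genes tested, 5 rose and 4 fell at 180 mg/m3 (median 0.03). The activators Npas2 (-0.62 ± 0.09 SE) and Arntl (-0.57 ± 0.10 SE) fell, and Dbp, an output gene of the clock, changed by 1.39 ± 0.31 SE and Bhlhe40 by 0.42 ± 0.10 SE. Dbp varied from 12.1 to 38.9 CPM among the MWCNT rats and from 6.47 to 10.1 CPM among the air rats. The part of the clock genes in the changes of the 10 members was not tested.

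Without exposure, the 5 air groups did not differ at a level that passed for any of the 10 genes in edgeR's test (4 degrees of freedom), where 7.11% of all genes did. The lowest adjusted p was 0.12, for Fos. At an unadjusted p under 0.05 there were 2 of 10, Fos (0.018) and Nr4a3 (0.041), and limma voom called 0. Mean Nr4a3 in air was 2.87, 2.33, 2.85, 2.43 and 2.05 CPM in the runs at 11.25, 22.5, 45, 90 and 180 mg/m3, so the air level was lowest in the run where the MWCNT level was highest.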

How the data were processed

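Lung mRNA from 60 rats was measured by stranded sequencing with 12 cycles of PCR, per the labels' protocols. The authors deposited raw counts of reads per gene symbol, and the submitters' processing notes name bcl2fastq 2.19, Trimmomatic 0.35, HISAT2 2.1.0, Cufflinks, SAMtools 1.8 and HTSeq 0.11.2. The genome build is not given in the sources used here. The 53 libraries without an outlier label were used. Counts were filtered with filterByExpr (minimum count of 10), which kept 15995 genes and 99.9% of counts, and were scaled by TMM. A robust quasi-likelihood model over the 10 groups was fitted in edgeR 4.0.16 (R 4.3.3) and tested on simulated data. Besides the 5 comparisons within runs, the slope per doubling of dose, the difference of effects among runs and the difference among air groups were tested. Co-variation used a pseudocount of 1 and 100000 permutations within groups (Python 3.11.15, SciPy 1.17.1). No pair of libraries within a group agreed within sampling noise (smallest chi-square per degree of freedom 2.6). Counts carry no molecular identifiers, so read depth limits precision only in part.

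The members, the 12 pathway lists and the 10 marker lists were chosen with earlier results of these data known. All members are named, with, of each list, the called genes with the smallest p at 180 mg/m3 (at most 4), any list gene called in 4 or 5 runs, and the 5 genes most like Nr4a3, Atf3 and Fos. One gene that this rule names is not reported here. Of the marker lists, lung epithelium had 4 of 10 genes higher and 2 lower at 180 mg/m3, T cell 1 of 8 higher and 1 lower, liver 1 of 12 higher and 1 lower, heart and skeletal muscle 2 of 8 higher, and smooth muscle and fibroblast (8 genes) and B cell (5 genes) 0 called. Alternatives were all 60 libraries, 57 libraries without the 3 of liver profile, DESeq2's size factors, no filter, a stricter filter (1 CPM or more in 10 libraries), limma voom 3.58.1 with quality weights, DESeq2 1.42.0, each run fitted alone, and leaving out each library. In 27 rows the gene symbol had become a spreadsheet date.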

Additional observations from a re-analysis of the deposited data

Results flagged for a closer look

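In 14 of 90 combinations of gene and group with at least 4 rats, the highest rat stood apart from the others of its group by Dixon's 95% criterion. For normally distributed values chance meets it in about 1 in 20 combinations, or 4.5 here. The criterion was applied to CPM without logs and several of the genes varied together, so 14 against 4.5 is not a test. Replicate 6 of the 22.5 mg/m3 run accounted for several in both groups. In the MWCNT group it read 151.0 CPM for Fos, 39.95 for Fosb, 97.16 for Egr1 and 196.2 for Junb. In the air group it read 184.3 CPM for Fos, 56.92 for Fosb, 121.7 for Egr1, 173.3 for Junb and 86.44 for Nr4a1. The others were Fos at 160.5 CPM in MWCNT replicate 2 at 45 mg/m3, Egr1 at 20.43 CPM in MWCNT replicate 6 at 11.25 mg/m3, Junb at 106.4 CPM in air replicate 6 at 90 mg/m3 and at 86.61 CPM in air replicate 6 at 180 mg/m3, and Jun at 272.4 CPM in air replicate 5 at 180 mg/m3.

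The MWCNT effect on Nr4a3 differed among the 5 runs (edgeR adjusted p = 7.1e-10).

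Of the 7 libraries labelled as outliers, 2 MWCNT libraries without a liver profile were set beside the air rats of their runs, in counts per 1000000 of the library total. The other 5, 3 of liver profile and 2 air libraries of the 45 mg/m3 run, were not compared in this way. Liver markers took 0.179% of counts in MWCNT replicate 1 at 180 mg/m3 and 0.279% in MWCNT replicate 2 at 11.25 mg/m3. In the analysed libraries they took 0.022% to 0.052%. MWCNT replicate 1 at 180 mg/m3 held 7.77 times 1000000 counts, fewer than any analysed library. MWCNT replicate 1 at 180 mg/m3 lay above all 6 air rats of its run for Nr4a3, with 17.0 against an air maximum of 2.38. It was also above them for Junb (120.0 against 84.7), Ier3 (34.3 against 27.7), Atf3 (25.8 against 17.9) and Fos (35.4 against 33.0). For Jun it lay below all 6, with 196.1 against an air minimum of 235.5. The 4 genes called in that run were among those above every air rat in this unused library. MWCNT replicate 2 at 11.25 mg/m3 lay above all air rats of its run for Fos (14.6 against 11.4), Egr1 (19.4 against 16.6) and Ier3 (25.2 against 21.0). For neither library was the share of all genes above or below every air rat taken. These comparisons thus have no scale over all genes and are not a test of the calls.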

How the results depend on the processing

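No paired analysis was possible because the labels give the rats running numbers that do not recur between the groups compared. The calls of Nr4a3 and Junb at 180 mg/m3 and of Nr4a3 at 90 mg/m3 held under every alternative run, leave-one-out included; those of Atf3 and Ier3 at 180 mg/m3 were lost with all 60 libraries (0.59, adjusted p = 0.25, and 0.78, adjusted p = 0.082). With all 60 libraries, 3 of them of liver profile, genes called were 0 at 11.25, 163 at 22.5, 5122 at 90 and 614 at 180 mg/m3, 99 for the slope and 2415 for the difference among runs, and members called were 0 at 22.5, 4 at 90 (Nr4a3, Ier3, Jun and Nr4a1) and 2 at 180 mg/m3. Arntl (0.13), Maff (-0.14), B3gnt7 (-0.11) and Rxrg (1.89) at 90 mg/m3 and Elk3 at 45 mg/m3 (0.12) then changed sign. With the 22.5 mg/m3 run fitted alone, 341 genes and 0 members were called. With limma voom, genes called were 1857 at 45 and 3189 at 90 mg/m3, 3669 among air groups, 1891 among runs and 2593 for the slope, and 1 member, Jun, was called at 45 mg/m3. Causes of these shifts were not tested.

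Leaving out each library in turn gave 2 to 5 genes called at 11.25, 735 to 2919 at 22.5, 377 to 811 at 45, 1314 to 1743 at 90 and 3182 to 3647 at 180 mg/m3. It gave 540 to 1440 among air groups, 657 to 1051 among runs and 1455 to 1980 for the slope. The highest count at 22.5 mg/m3 came without air replicate 2. Members called stayed at 0, 1, 1 and 4 at 11.25, 22.5, 90 and 180 mg/m3 and were 0 to 1 at 45 mg/m3 (Jun, without MWCNT replicate 2); at 22.5 mg/m3 without air replicate 6 the called member was Ier3 and not Nr4a3. Pairs of members that varied together were 23 to 35, and 25 over the MWCNT rats or over the air rats alone. The difference tests were not run in DESeq2. Counts of Nr4a3, 17 to 130 reads, limit its precision.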
